A study of Mus musculus with 10 samples.

Results

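The 8 genes described here, Lilrb4a, Lair1, Cd22, Cd300a, Sirpa, Cd33, Havcr2 and Cd200r1, encode receptors of myeloid cells that are grouped as inhibitory. They were taken by gene symbol out of 24421 symbols, and all 8 passed the filter on low counts that left 18727 genes. RNA was sequenced from microglia of the mouse cortex at 9 months of age in 10 libraries, each made from a pool of 2 mice. Of the 10, 3 came from wild-type mice (WT), 4 from untreated APP/PS1 mice and 3 from transgenic mice injected with N-acetyl sphingosine (APP/PS1+N-AS) at 30 mg/kg under the skin each day for 8 weeks from 7 months of age. The study's text describes its APP/PS1 controls as given vehicle, which the sample labels do not mention. APP/PS1 mice over-express mutant human amyloid precursor protein and mutant presenilin-1 and are a model of amyloid deposition rather than of the whole of Alzheimer's disease. Cells were separated on a density gradient after papain digestion, and no sort by surface marker is described. Levels are given as CPM, the standard depth-scaled read count, with scaling by the trimmed mean of M values (TMM).

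Inhibitory receptors recognise ligands on neighbouring cells or in the matrix and raise the threshold at which a phagocyte responds. The classical ones carry a tyrosine motif in their cytoplasmic tail, the ITIM, in which the tyrosine is phosphorylated by Src-family kinases and then recruits the phosphatases encoded by Ptpn6, Ptpn11 and Inpp5d. In microglia they are known as counterparts of receptors that signal through the adaptor Tyrobp, such as Trem2, and Sirpa and Cd200r1 are known for receiving restraining signals from neurons through Cd47 and Cd200.

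A search of the last 150 encoded residues of the longest complete coding transcript for an ITIM (S, I, V or L, any residue, Y, any residue, any residue, I, V or L) separated the 8 genes. Cd22 had 4 matches, Sirpa had 3, and Lilrb4a, Lair1 and Cd300a had 2 each. Sirpa had 1 further tyrosine motif of the switch type (ITSM). Cd33, Havcr2 and Cd200r1 had no match, so the label of a classical ITIM receptor did not hold for these 3 by this search. In mouse, Cd200r1 and Havcr2 are known to signal through other tyrosines, and mouse Cd33 is known to lack the classical motif of human CD33. The coding stretch of 7 of the motifs is shown, because the motif is what most of these receptors share; each is 5′ to 3′ on the coding strand of mm10 (GENCODE M21 transcripts), lies within a coding exon, and has the tyrosine codon in capitals.
Lilrb4a motif 1, chr10:51496021-51496038, plus strand: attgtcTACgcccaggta
Lilrb4a motif 2, chr10:51496194-51496211, plus strand: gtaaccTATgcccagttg
Lair1 motif 1, chr7:4009790-4009807, minus strand: gtgacgTATatccagctg
Lair1 motif 2, chr7:4009703-4009720, minus strand: agcacaTATgcagccatc
Cd22 motif 3, chr7:30866600-30866617, minus strand: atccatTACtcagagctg
Cd300a motif 1, chr11:114899846-114899863, plus strand: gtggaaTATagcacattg
Sirpa motif 2, chr2:129630077-129630094, plus strand: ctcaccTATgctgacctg
The genes themselves lie at chr10:51490956-51496611 (Lilrb4a), chr7:4003402-4063204 (Lair1), chr7:30865402-30880342 (Cd22), chr7:43524216-43544428 (Cd33), chr11:114890041-114904654 (Cd300a), chr11:46454935-46481255 (Havcr2), chr2:129592835-129632228 (Sirpa) and chr16:44765736-44794978 (Cd200r1) in the same build. Lilr4b, the neighbouring paralog of Lilrb4a on chromosome 10, had no match in its tail, although 96.04% of 910 aligned coding bases were identical between the paralogs.

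Total counts ran from 8805804 to 19432075 reads per library. Xist, which female cells transcribe from the inactive X chromosome, was at 29 to 37 reads in APP/PS1+N-AS replicate 3 and in each WT library, and at 5253 to 11188 reads in the other 6 libraries, whereas the study's methods state that only male mice were used. Sex by Xist and the contrast of APP/PS1 with WT therefore cannot be told apart. None of the 8 genes lies on a sex chromosome, which does not separate sex from group. APP/PS1+N-AS replicate 3 was also left out where that moved a result. Without it, as in libraries numbered 1 to 6 alone, sex by Xist and APP/PS1+N-AS against WT cannot be told apart either. The cells were not pure: the summed level of 10 neuron markers was 3084 to 6181 CPM, highest in WT replicate 3, and that of 10 oligodendrocyte markers was 2376 to 6722 CPM in WT, 1875 to 4621 CPM in APP/PS1 and 2818 to 3815 CPM with N-AS. For 14 microglia markers such as Csf1r, Cx3cr1, P2ry12 and Tmem119 the WT libraries summed to between 864 and 1282 CPM, the untreated APP/PS1 libraries to between 2590 and 3370 CPM, and the treated ones to between 1675 and 2147 CPM. In such bulk libraries, fewer microglia and less RNA per microglial cell cannot be told apart. Libraries numbered 1 to 6 in the labels hold replicates 1 and 2 of each group and those numbered 7 to 10 hold the rest, and the labels do not say that the numbers mark a batch.

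In APP/PS1 against WT, 2 of the 8 receptors rose, Lilrb4a by 11.9-fold and Lair1 by 2.82-fold, and the other 6 did not pass the test. Of all genes tested, 2.67% were called higher and 0.796% lower in this comparison (edgeR quasi-likelihood test, adjusted p under 0.05). The groups did not overlap for 3 of the 8 receptors (Lilrb4a, Lair1 and Sirpa), beside 14.9% of all genes. The median log2 fold change was 0.52 over the 8 receptors and −0.07 over all genes tested.

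Lilrb4a, an immunoglobulin-like receptor of myeloid cells that is known to bind an integrin, had 7.01, 2.54 and 1.88 CPM in the 3 WT libraries. It had 40.3, 41.0, 42.5 and 44.3 CPM in APP/PS1, and 26.2, 28.2 and 11.2 CPM in APP/PS1+N-AS. All APP/PS1 libraries lay within a narrow band above every other library, every APP/PS1+N-AS library lay between the other groups, and replicate 3 was the lowest of the treated ones. The log2 fold change of APP/PS1 against WT was 3.57 (standard error 0.45, 95% interval 2.58 to 4.57, adjusted p = 0.00217 from edgeR). It ranged from 3.24 to 4.26 when each library was left out in turn. Lilrb4a was among the genes that the study picked from these same libraries, so its direction is not independent evidence.

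The reads of Lilrb4a cannot be fully separated from those of its neighbours. Its exons share 1846 bases with Gm49339 on the same strand and 131 bases with the antisense gene Gm40645, and the strand setting of the counting is not given in the sources used here. Lilr4b, the paralog without a motif match, lay between 0.820 and 2.85 CPM in WT, between 7.24 and 12.3 CPM in APP/PS1, and between 4.51 and 9.49 CPM with N-AS. Its log2 fold change in APP/PS1 against WT was 2.54 (standard error 0.42, adjusted p = 0.00816). Both paralogs passed the test, and the share of reads exchanged between them was not tested.

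Lair1, a receptor for collagens and for collagen-like domains such as that of complement C1q, had 23.9, 26.3 and 35.3 CPM in WT. It had 62.4, 70.4, 102 and 88.4 CPM in APP/PS1, and 57.8, 62.8 and 46.3 CPM in APP/PS1+N-AS. WT lay below both APP/PS1 groups without overlap, and only APP/PS1+N-AS replicate 2 overlapped the untreated APP/PS1 libraries. The log2 fold change of APP/PS1 against WT was 1.497 (standard error 0.21, 95% interval 1.04 to 1.96, adjusted p = 0.00357 from edgeR), and it stayed between 1.38 and 1.69 when each library was left out in turn.

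Sirpa, the receptor for the widely expressed surface protein Cd47 that restrains phagocytosis, had 133, 149 and 251 CPM in WT. It had 252, 279, 292 and 316 CPM in APP/PS1, and 231, 257 and 245 CPM in APP/PS1+N-AS. WT replicate 3 was far above the other WT libraries and just below the lowest APP/PS1 library, so the groups did not overlap by a narrow margin. The log2 fold change of APP/PS1 against WT was 0.68 (standard error 0.21) and did not pass (adjusted p = 0.123 from edgeR, with 0.00537 to 0.715 over its alternatives). Without WT replicate 3, which had the highest neuron and microglia marker sums of the WT libraries, it was 1.02 (adjusted p = 0.00537). It was also called by DESeq2 on all 10 libraries (0.68, adjusted p = 0.0299), with the library number set in the model (0.66, adjusted p = 0.0494) and in libraries 1 to 6 alone (0.88, adjusted p = 0.00969), which made 4 of 21 alternatives. Within libraries 1 to 6 and 7 to 10 the mean differences of log2 CPM were 0.91 and 0.28. The neuron marker sums of WT replicates 1, 2 and 3 were 3084, 3098 and 6181 CPM. The part of neurons in the level of Sirpa was not tested.

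**Figure D1:**
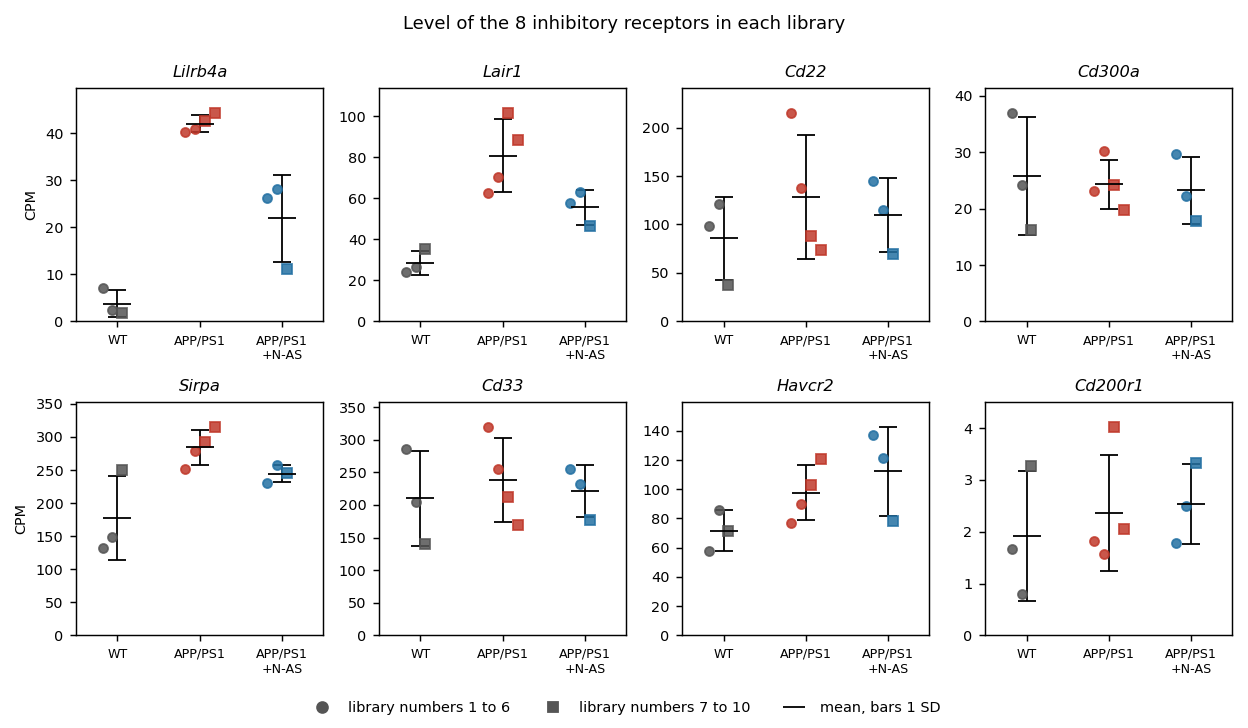
Level of each of the 8 receptors in CPM (y axis, starting at 0, each panel with its own scale) in the WT, APP/PS1 and APP/PS1+N-AS libraries, with circles for library numbers 1 to 6, squares for 7 to 10, and the group mean with 1 SD. For Lilrb4a and Lair1 the lowest APP/PS1 point lies above the highest WT point, whereas the squares of Cd22 and Cd33 lie below the circles of their own group.

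Of the receptors for sialic acid on cell surfaces (Siglecs), neither Cd22 nor Cd33 passed the test. Cd22, best known from B cells, had 98.1, 121 and 37.8 CPM in WT, 215, 138, 88.1 and 73.8 CPM in APP/PS1, and 145, 115 and 69.2 CPM in APP/PS1+N-AS. Cd33 had 286, 204 and 140 CPM in WT, 320, 255, 212 and 169 CPM in APP/PS1, and 255, 233 and 177 CPM in APP/PS1+N-AS. In every group and for both genes, the libraries numbered 7 to 10 lay below those numbered 1 to 6, a spread within groups that exceeded the difference between them. The log2 fold change in APP/PS1 against WT was 0.59 for Cd22 (95% interval −0.40 to 1.58, adjusted p = 0.567) and 0.18 for Cd33 (−0.42 to 0.79, adjusted p = 0.787). With the library number set in the model, Cd22 passed at 0.82 (standard error 0.19, adjusted p = 0.0377, the lowest of its 21 alternatives, which reached 0.861), and the within-set differences were 0.66 and 1.09. Cd33 changed sign without WT replicate 3 (−0.023). Cd22 shares 479 exon bases with the antisense gene Gm29439. The summed level of 5 B cell markers was at most 7.49 CPM in WT, 5.74 CPM in APP/PS1 and 2.04 CPM with N-AS. The part of B cells in the level of Cd22 was not tested.

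Cd300a, a receptor for phosphatidylserine and phosphatidylethanolamine on dying cells, did not differ detectably between groups. It had 37.0, 24.1 and 16.2 CPM in WT, 23.0, 30.2, 24.3 and 19.8 CPM in APP/PS1, and 29.6, 22.3 and 17.9 CPM with N-AS. The WT libraries spanned the values of both other groups. Its log2 fold change in APP/PS1 against WT was −0.07 (95% interval −0.67 to 0.52, adjusted p = 0.924), so a change of more than about 0.67 in either direction lay outside the interval. It took the other sign without WT replicate 1 (0.27) or without APP/PS1 replicate 4 (0.028).

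Havcr2 (TIM-3), which binds galectin-9, phosphatidylserine and Hmgb1, had 57.8, 85.9 and 71.4 CPM in WT. It had 77.1, 90.0, 103 and 121 CPM in APP/PS1 and 137, 122 and 78.4 CPM in APP/PS1+N-AS. The untreated APP/PS1 libraries overlapped WT, and the 2 highest values of all 10 libraries were those of treated replicates 1 and 2, next to APP/PS1 replicate 4. The log2 fold change in APP/PS1 against WT was 0.45 (95% interval −0.05 to 0.94, adjusted p = 0.349).

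Cd200r1, the receptor for neuronal Cd200, was close to the limit of detection, at 14, 13 and 68 reads in WT, 21, 19, 59 and 43 reads in APP/PS1, and 27, 47 and 45 reads with N-AS. As CPM, WT lay between 0.805 and 3.28, APP/PS1 between 1.57 and 4.03, and the treated libraries between 1.78 and 3.32, so the groups overlapped. Its log2 fold change in APP/PS1 against WT was 0.29, with a wide 95% interval from −0.80 to 1.38 (adjusted p = 0.821). Without WT replicate 2 or APP/PS1 replicate 3 it was below 0 (−0.091 and −0.079).

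**Figure D2:**
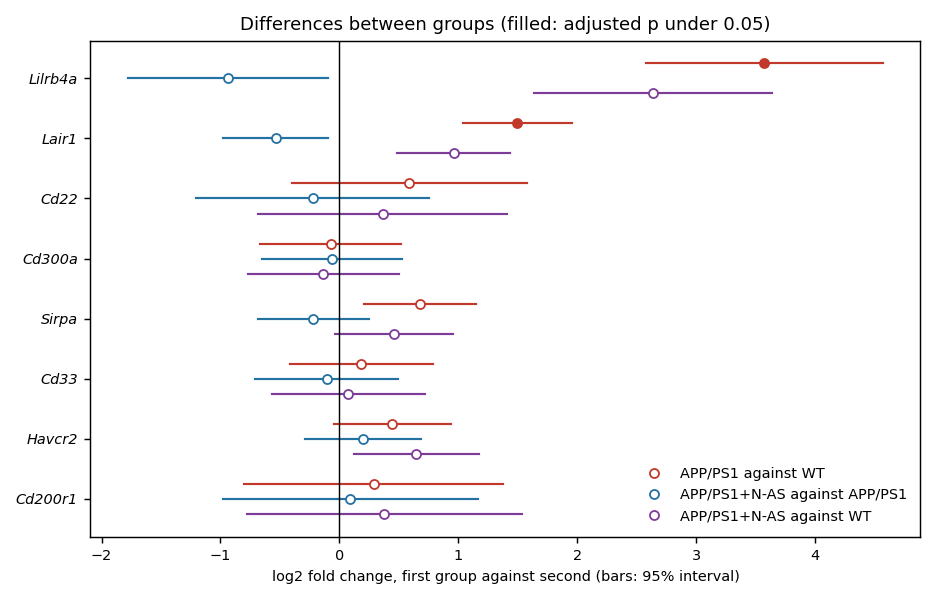
Fitted log2 fold changes (x axis) of the 8 receptors (rows) with 95% intervals in the 3 comparisons, filled where the adjusted p was under 0.05. Only Lilrb4a (3.57) and Lair1 (1.497) in APP/PS1 against WT are filled, and the intervals of Cd200r1, Lilrb4a and Cd22 are the widest in this comparison.

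Compared per kilobase of merged exons, the order of the mean levels in APP/PS1 was Sirpa (57.9 ± 5.39 CPM per kb, SD, n = 4), Havcr2 (35.9 ± 6.85), Cd33 (30.7 ± 8.31), Cd22 (25.5 ± 12.7), Lair1 (10.8 ± 2.36), Lilrb4a (8.04 ± 0.341), Cd300a (5.13 ± 0.916) and Cd200r1 (0.706 ± 0.337). Havcr2, Cd33 and Cd22 did not differ beyond their spread. In WT, Sirpa (36.1 ± 13.03 CPM per kb, SD, n = 3), Cd33 (27.1 ± 9.41), Havcr2 (26.3 ± 5.18) and Cd22 (16.98 ± 8.52) again came first within overlapping spreads, whereas Cd300a (5.44 ± 2.22) and Lair1 (3.81 ± 0.804) overlapped, as did Lilrb4a (0.729 ± 0.534) and Cd200r1 (0.572 ± 0.375) at the low end. With N-AS (SD, n = 3) the order was Sirpa (49.8 ± 2.70 CPM per kb), Havcr2 (41.3 ± 11.2), Cd33 (28.5 ± 5.17), Cd22 (21.8 ± 7.60), Lair1 (7.44 ± 1.14), Cd300a (4.91 ± 1.248), Lilrb4a (4.19 ± 1.78) and Cd200r1 (0.756 ± 0.231). Cd300a and Lilrb4a, which changed places there, did not differ beyond their spread. The place of Lilrb4a depends on the transcript: over its longest protein-coding transcript alone, an alternative chosen after the data were seen, it was 30.4 CPM per kb in APP/PS1. On that same length, Lair1 had 11.8, Cd22 32.4, Havcr2 35.9, Cd33 41.7 and Sirpa 71.5 CPM per kb. Lilrb4a thus passed only Lair1, and Cd33 and Havcr2 also changed places.

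The microglia markers also moved between the groups. In APP/PS1 against WT, 11 of the 14 were called higher, and their mean log2 CPM differed by 1.43, at 7.10 ± 0.15 (SD, n = 4) against 5.67 ± 0.31 (SD, n = 3) (two-sided exact permutation p = 0.0286, the smallest that 4 against 3 libraries allow). Each receptor was therefore also expressed relative to the marker mean of its own library, on the log2 scale, in 24 tests whose p-values are unadjusted.

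Relative to the markers, Lilrb4a was still higher in APP/PS1, at −1.62, −1.68, −1.90 and −1.61 against −2.59, −4.16 and −5.01 in WT. No APP/PS1 library overlapped WT, and the WT libraries differed widely among themselves. The difference was 2.21 (exact permutation p = 0.0286), and it ran from 1.67 without WT replicate 3 to 2.88 without WT replicate 1. Lair1 lay at −0.99, −0.90, −0.65 and −0.62 in APP/PS1 and at −0.84, −0.85 and −0.88 in WT, a difference of 0.06 (exact permutation p = 0.543). The WT values of Lair1 lay inside the range of the APP/PS1 values.

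Sirpa, Havcr2 and Cd300a were lower on this scale, as most genes were. Sirpa was at 1.02, 1.08, 0.87 and 1.21 in APP/PS1 and at 1.62, 1.65 and 1.95 in WT, lower in every APP/PS1 library (difference −0.69, exact permutation p = 0.0286). Havcr2 (−0.98) and Cd300a (−1.45) were lower in the same way without overlap (exact permutation p = 0.0286 each). Cd33, Cd22 and Cd200r1 had differences of −1.22, −0.81 and −1.04, and their groups overlapped (exact permutation p = 0.0857, 0.257 and 0.0857). In all, 1 receptor was higher and 3 were lower without overlap relative to the markers, beside 0.406% of all genes higher and 79.8% lower. The median difference of all genes on this scale was −1.48, and none of the 3 receptors that were lower lay below it. The 14 markers themselves differed by 0.37 to 2.52 in mean log2 CPM between these groups, with P2ry12, Sall1 and Tmem119 lowest and the C1q genes highest. The place of a receptor therefore depends on the marker: the difference of Lilrb4a exceeded that of all 14, Lair1 was exceeded by 6, Sirpa and Cd22 by 11, Havcr2 by 12, Cd200r1 by 13, and Cd33 and Cd300a by all 14. With the marker mean as a covariate in edgeR, a model in which group and marker level are nearly collinear, none of the 8 receptors and none of all genes were called, and the log2 fold change was 4.14 for Lilrb4a (standard error 1.56) and −0.18 for Lair1 (standard error 0.40).

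**Figure D3:**
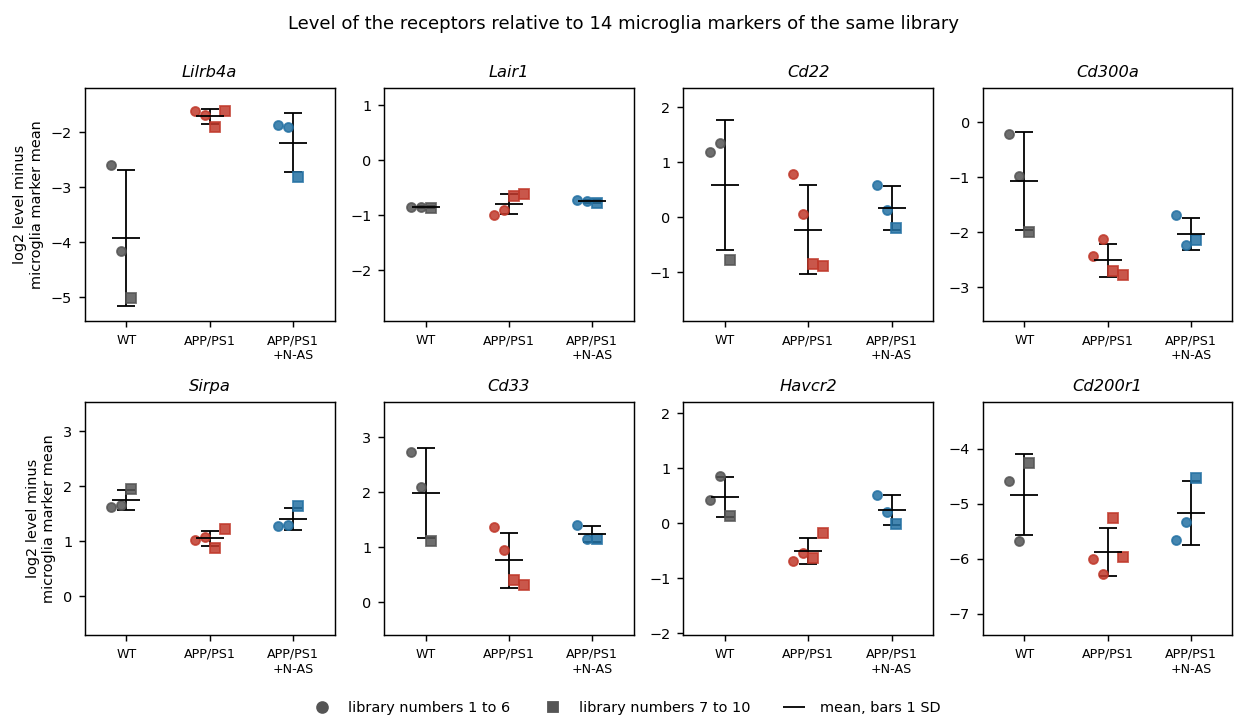
Log2 CPM of each receptor minus the mean log2 CPM of 14 microglia markers in the same library (y axis, equal span in every panel), by group, with circles for library numbers 1 to 6 and squares for 7 to 10, and the mean with 1 SD. Lilrb4a lies higher in APP/PS1 than in WT (difference 2.21), Lair1 lies level (0.06), and Sirpa, Havcr2 and Cd300a lie lower, as 79.8% of all genes did on this scale.

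In APP/PS1+N-AS against APP/PS1, none of the 8 receptors passed the test with edgeR, and neither DESeq2 nor limma voom called any of them. Of all genes tested, edgeR called 0%, limma voom called 0 and DESeq2 called 73. At an unadjusted p under 0.05, 2 of the 8 were lower (Lilrb4a and Lair1), beside 4.05% of all genes, and the groups did not overlap for 1 of the 8 (Lilrb4a), beside 12.7% of all genes. The log2 fold change of Lilrb4a was −0.94 (standard error 0.38, 95% interval −1.78 to −0.10, adjusted p = 0.531 from edgeR). That of Lair1 was −0.54 (standard error 0.20, 95% interval −0.98 to −0.094, adjusted p = 0.517).

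Both values rested in part on APP/PS1+N-AS replicate 3, the treated library with few Xist reads. Without it, Lilrb4a had −0.62 (adjusted p = 0.725) and Lair1 had −0.41 (adjusted p = 0.724) by edgeR, neither with an unadjusted p under 0.05. Over all alternatives the adjusted p ran from 0.285 to 0.996 for Lilrb4a and from 0.299 to 0.996 for Lair1. The mean differences of log2 CPM within libraries 1 to 6 were −0.58 for Lilrb4a and −0.14 for Lair1, and within libraries 7 to 10, which hold this single treated library, they were −1.94 and −1.03.

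The remaining 6 receptors had log2 fold changes from −0.23 (Cd22) to 0.20 (Havcr2) in the treated against the untreated APP/PS1 mice, none with an unadjusted p under 0.05 in edgeR. Their 95% intervals reached at most 0.75 in either direction for Cd33, Cd300a, Havcr2 and Sirpa, whereas those of Cd22 (−1.20 to 0.75) and Cd200r1 (−0.98 to 1.16) were wider. Havcr2 had 0.41 without APP/PS1+N-AS replicate 3, and it differed by 0.63 within libraries 1 to 6 and by −0.51 within libraries 7 to 10. The sign changed for Cd33 and Cd22 without APP/PS1 replicate 1 (0.067 and 0.14) or without APP/PS1+N-AS replicate 3 (0.038 and 0.027). It also changed for Cd300a without APP/PS1 replicate 2 (0.060) or APP/PS1+N-AS replicate 3 (0.10), and for Cd200r1 without APP/PS1 replicate 1 (−0.011) or 2 (−0.056) or APP/PS1+N-AS replicate 3 (−0.14).

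The microglia marker mean differed by −0.56 between treated and untreated APP/PS1 mice, at 6.54 ± 0.21 (SD, n = 3) against 7.10 ± 0.15 (SD, n = 4) (exact permutation p = 0.0286). Relative to the markers, Lilrb4a differed by −0.48 (exact permutation p = 0.0857) and Lair1 by 0.04 (exact permutation p = 0.629) in this comparison. Havcr2, at 0.52, 0.21 and −0.02 in APP/PS1+N-AS and at −0.69, −0.55, −0.63 and −0.17 in APP/PS1, was higher by 0.75 without overlap. Sirpa, at 1.27, 1.29 and 1.63 against 1.02, 1.08, 0.87 and 1.21, was higher by 0.35 without overlap. The exact permutation p was 0.0571 for each of Havcr2 and Sirpa, no receptor reached 0.05 here, and 52.9% of all genes were higher without overlap on this scale, with a median difference of 0.56. Without APP/PS1+N-AS replicate 3 the differences were 0.87 for Havcr2, 0.23 for Sirpa and −0.17 for Lilrb4a.

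Between treated APP/PS1 and WT mice, edgeR called none of the 8 receptors, DESeq2 called 2 (Lilrb4a and Lair1) and limma voom called 1 (Lilrb4a). Of all genes these tools called 0.187%, 0.991% and 0.107% in the same order. Relative to the markers, 1 receptor (Lair1) was higher without overlap, beside 0.283% of all genes, by a difference of 0.11 (exact permutation p = 0.1, the smallest that 3 against 3 libraries allow). At an unadjusted p under 0.05, 3 of the 8 were higher (Lilrb4a, Lair1 and Havcr2), beside 3.64% of all genes, and 2 of the 8 did not overlap (Lilrb4a and Lair1), beside 8.81% of all genes. Lilrb4a, at 2.63 on the log2 scale with a standard error of 0.45, was just outside the threshold (adjusted p = 0.0593), and 9 of its 21 alternatives called it, with adjusted p-values from 1.88e-06 to 0.711. It passed without WT replicate 1 (3.32, adjusted p = 0.0307) and without APP/PS1+N-AS replicate 3 (2.98, adjusted p = 0.00821). Without that treated library, sex by Xist and the contrast of APP/PS1+N-AS with WT cannot be told apart. Lair1 had 0.96 (standard error 0.22, adjusted p = 0.181), Havcr2 had 0.65 (standard error 0.24, adjusted p = 0.628) and Sirpa had 0.46 (standard error 0.22, adjusted p = 0.749). Without APP/PS1+N-AS replicate 3, Lair1 had 1.11 (adjusted p = 0.0917) and Havcr2 had 0.87 (adjusted p = 0.211). The 3 comparisons share libraries, so their values are not independent of each other.

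The partners of these receptors were taken from lists of ligands, signalling proteins, activating counterparts and other inhibitory receptors. Their levels were not expressed relative to the microglia markers, whose median log2 fold change in APP/PS1 against WT was 1.39. In that comparison 2.67% of all genes were called higher. Of the 10 ligand genes, 1 was called in APP/PS1 against WT: Lgals9, which encodes galectin-9, a ligand of Havcr2, had 17.4 CPM on average in WT and 31.4 CPM in APP/PS1 (log2 fold change 0.85, standard error 0.18, adjusted p = 0.0290). Lgals9 lay at 19.1 to 20.6 CPM in APP/PS1+N-AS, below every untreated APP/PS1 library, without passing the test (−0.65, adjusted p = 0.494). Cd47, the ligand of Sirpa, had 47.8 CPM in WT and 52.6 CPM in APP/PS1 (0.13, adjusted p = 0.756), and Cd200 had 61.9 and 55.7 CPM (−0.15, adjusted p = 0.531). St6gal1, the enzyme that makes the sialylated ligands of Cd22, had 0.11 (adjusted p = 0.798), and the collagen genes Col3a1 and Col1a1 had −0.53 and 1.18 (adjusted p = 0.296 and 0.437). Col1a1 was uneven in APP/PS1, from 17.5 to 150 CPM (SD 64.8, n = 4), and overlapped WT at 17.7 to 29.2 CPM.

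Of the 11 genes for proteins that act below the motif, 4 were called higher in APP/PS1 against WT and none lower. Ptpn6, the phosphatase SHP-1, had 12.5, 13.1 and 20.01 CPM in WT, 50.7, 45.3, 70.4 and 73.5 CPM in APP/PS1 and 38.9, 41.5 and 23.1 CPM in APP/PS1+N-AS. The WT libraries were the lowest, the untreated APP/PS1 libraries the highest and the treated ones lay between, without overlap. Its log2 fold change in APP/PS1 against WT was 1.97 (standard error 0.27, adjusted p = 0.00331). Inpp5d, the lipid phosphatase SHIP-1, had 1.37 (adjusted p = 0.00437), and the Src-family kinase Lyn had 1.13 (adjusted p = 0.00359). Ptpn11, the widely expressed phosphatase SHP-2, had 129 CPM in WT and 134 CPM in APP/PS1 (0.06, adjusted p = 0.863), and Dok2, the adaptor of Cd200r1, was below 1 CPM on average in every group (−0.14, adjusted p = 0.915). With N-AS, none of the 11 were called against APP/PS1, and 4 had an unadjusted p under 0.05, all lower, among them Ptpn6 (−0.80, adjusted p = 0.497). Without APP/PS1+N-AS replicate 3 this was 1 of the 11, Ptpn6 (−0.57), and against WT both Ptpn6 (1.42, adjusted p = 0.0462) and Inpp5d were then called. In that comparison with WT, sex by Xist and group cannot be told apart.

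Of the activating counterparts, 13 of 20 genes in the files passed the filter and 5 were called higher in APP/PS1 against WT, none lower. The adaptors Tyrobp (3.40, standard error 0.28, adjusted p = 0.000379) and Fcer1g (2.66, standard error 0.23, adjusted p = 0.000379) and the receptor Trem2 (3.36, standard error 0.29, adjusted p = 0.000379) rose, and so did Cd200r4 (2.85, adjusted p = 0.0176) and Siglech (1.39, adjusted p = 0.0176). Cd200r4, the activating relative of Cd200r1, was itself low, at 0.377 CPM on average in WT and 2.72 CPM in APP/PS1. Against WT, treated mice still had calls for Tyrobp (2.33), Trem2 (2.15) and Fcer1g (1.53), with adjusted p = 0.0160, 0.0187 and 0.0312. Against untreated APP/PS1 none were called, and 5 of 13 had an unadjusted p under 0.05, all lower.

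Among 22 other inhibitory receptors 19 were tested, and 6 were called higher and none lower in APP/PS1 against WT. They were Fcgr2b, the inhibitory Fc receptor (2.36, standard error 0.25, adjusted p = 0.000764), Milr1 (2.76, adjusted p = 0.00529), the gene listed as 4632428N05Rik that encodes VISTA (1.32, adjusted p = 0.00562), Lilr4b (2.54), Siglecf (2.74, adjusted p = 0.0161) and Cd72 (1.69, adjusted p = 0.0127). Lilr4b stands in this list by its family, and the motif search found no match in its tail, so 5 were called besides it. Only Fcgr2b of this list was called in APP/PS1+N-AS against WT (1.53, adjusted p = 0.0463), and against APP/PS1 none were called and 6 had an unadjusted p under 0.05, all lower. The list medians in APP/PS1 against WT were 0.82 for the other inhibitory receptors, 1.04 for the signalling genes, 0.68 for the activating counterparts and 0.12 for the ligands, beside −0.07 over all genes and 1.39 over the microglia markers. Between treated and untreated APP/PS1 mice they were −0.41, −0.43, −0.71 and −0.072 in the same order, beside −0.0089 over all genes and −0.65 over the microglia markers. Without APP/PS1+N-AS replicate 3 the list medians were −0.27, −0.20, −0.84 and −0.047, with none called. The filter then kept 22 other inhibitory receptors and 15 activating counterparts, so these 2 medians cover more genes than the preceding ones. Genes lower at an unadjusted p under 0.05 numbered 3 of 22 other inhibitory receptors, 1 of 11 signalling genes, 5 of 15 activating counterparts and 1 of 10 ligands. At that threshold 1 activating counterpart was higher (Cd300ld, 0.49). The share of all genes at that threshold was not computed in this fit.

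**Figure D4:**
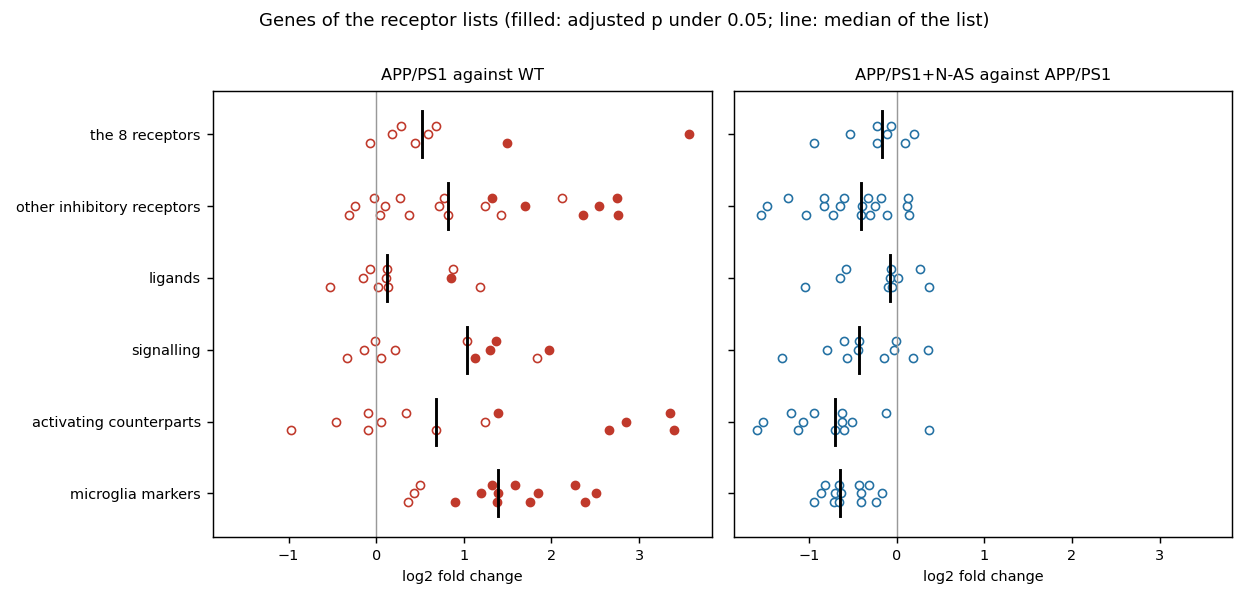
Log2 fold change (x axis) of each tested gene in the lists (rows), in APP/PS1 against WT and in APP/PS1+N-AS against APP/PS1, with filled points for an adjusted p under 0.05 and a line at the list median. In APP/PS1 against WT the filled points all lie above 0, and in APP/PS1+N-AS against APP/PS1 no point is filled.

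The markers of border macrophages, monocytes and neutrophils were low or uneven beside those of microglia. Neuron markers were not low, at 3084 to 6181 CPM, and the part of neurons in the results was not tested. The 8 border macrophage markers summed to at most 48.7 CPM in WT, 54.4 CPM in APP/PS1 and 51.2 CPM with N-AS, and the 5 monocyte markers to at most 54.3, 46.9 and 39.5 CPM. The 6 neutrophil markers summed to 4.67 to 19.99 CPM in 9 libraries and to 135 CPM in APP/PS1 replicate 3. In APP/PS1 against WT, edgeR called none of these markers, none of the T and NK cell, B cell, neuron and endothelial markers, and 2 of 8 astrocyte markers (higher), and of the uncalled lists 1 monocyte marker had an unadjusted p under 0.05. The 6 T and NK cell markers summed to 46.5 to 99.0 CPM in WT, 67.4 to 158 CPM in APP/PS1 and 66.9 to 102 CPM with N-AS. Cd3d alone averaged 68.4, 84.4 and 76.3 CPM in these groups. The other markers of this list were low. Their highest values in any library were 10.2 CPM for Cd4 (WT), 4.71 CPM for Cd3g (APP/PS1) and 3.69 CPM for Cd8a (APP/PS1+N-AS). Cd3e reached 3.14 CPM (APP/PS1) and Ncr1 reached 0.832 CPM (WT). The sum was therefore mostly the level of Cd3d and is not a measure of T and NK cells as a whole. In every group the sum of the 6 markers was lower in libraries numbered 7 to 10 than in those numbered 1 to 6. The part of T and NK cells in the results was not tested. Lilrb4a in APP/PS1 replicate 3 (42.5 CPM) lay within the range of the other APP/PS1 libraries, and the part of neutrophils in the results was not tested. Of the 10 oligodendrocyte markers 3 were called lower in APP/PS1 against WT, and the part of these cells in the results was not tested. In APP/PS1+N-AS against APP/PS1 all 10 lay above 0 (median 0.56) with none called or at an unadjusted p under 0.05. Of the 8 astrocyte markers 2 were lower there at an unadjusted p under 0.05 and none were called. Gfap, 1 of these 2, averaged 14.7 CPM in WT, 735 CPM in APP/PS1 and 231 CPM with N-AS. Its log2 fold change with N-AS against APP/PS1 was −1.67 (adjusted p = 0.494 from edgeR). The part of astrocytes in the results was not tested either.

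The genes whose centred log2 CPM lay closest to each receptor over the 10 libraries, by root mean square difference, differed between the receptors. For Lilrb4a these were Gpr65 (0.36) and Tlr2 (0.37), beside a standard deviation of 1.71 for Lilrb4a itself over the libraries. For Lair1 they were Gfm2 (0.10) and the microglia marker Gpr34 (0.12). Sirpa lay closest to Ifngr2 (0.08) and Abhd12 (0.08), and Hspa5 (0.16) was among the 2 closest to Havcr2. Cd33 lay closest to Gm4841 (0.08) and Hdac9 (0.09), Cd22 to Alx4 (0.12) and Tbx18 (0.13), Cd300a to 4933431E20Rik (0.14) and Ndp (0.14), and Cd200r1 to Mrpl16 (0.27) and Tmem254b (0.28).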

How the data were processed

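The data were read counts per gene symbol, 1 deposited table per library. The authors depleted ribosomal RNA, made stranded libraries, mapped reads to mm10 with TopHat and extracted counts with bedtools; the processing notes also name edgeR without a role, and versions and the strand setting are not given in the sources used here. These deposited values are raw counts, not normalised. Lines sharing a symbol were summed (103 lines of 43 symbols). Counts were fitted in R 4.3.3 with edgeR 4.0.16 (filterByExpr, TMM, glmQLFit, glmQLFTest) as 1 model of the 3 groups over 18727 genes, with Benjamini-Hochberg adjustment over all of them and a threshold of 0.05. The biological coefficient of variation was 27.4%. Log2 CPM used a prior count of 2. Receptors relative to microglia markers were compared by two-sided exact permutation tests. Gene positions, lengths and coding sequence came from GENCODE M21 (GRCm38).

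Alternatives were DESeq2 1.42.0, limma 3.58.1 voom with quantile normalization, other scalings and filters, a replicate block, the library number set or the marker mean as covariate, only the groups compared, and each library left out. The subset of libraries 1 to 6 and the protein-coding transcript length were added after the data were seen. Replicates of a group differed by more than counting noise, and nothing says that they were prepared on separate days. Replicate numbers are shared between groups; deviations of same-numbered libraries from their group means correlated at 0.28, 0.14 and 0.31 in APP/PS1+N-AS and APP/PS1, above 0.1 in each pair, but not in every pair of the other comparisons. Named genes were the 8 receptors, 9 fixed partners, up to 4 genes of each list with the lowest p in APP/PS1 against WT, the 2 nearest profiles of each receptor and Xist. Other genes named were chosen after their values were seen. The receptors and lists were chosen with earlier results of these data known. Some genes that this rule names are not reported here.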

Additional observations from a re-analysis of the deposited data

How the results depend on the processing

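The number of receptors called in APP/PS1 against WT was 2, and 2 or 3 when each library was left out. It was 4 with the library number set as covariate and 0 with the marker mean as covariate. In APP/PS1+N-AS against APP/PS1 it was 0 (0 without any 1 library) and 2 at an unadjusted p under 0.05. In APP/PS1+N-AS against WT it was 0, 0 or 1 without 1 library, 1 with limma voom, with total counts only, without the filter, with at least 10 counts in every library or with the library number set, 2 with DESeq2, and 3 in libraries 1 to 6 or at an unadjusted p under 0.05. With the marker mean as covariate, log2 fold changes took the other sign in APP/PS1 against WT for Lair1 (−0.18), Cd300a (1.149), Havcr2 (−0.63), Sirpa (−0.68) and Cd200r1 (−1.97), in APP/PS1+N-AS against APP/PS1 for Lair1 (0.13) and Sirpa (0.35), and in APP/PS1+N-AS against WT for Lair1 (−0.045), Cd300a (0.64), Havcr2 (−0.020), Sirpa (−0.34) and Cd200r1 (−0.83). In APP/PS1 against WT, Cd300a was also above 0 with limma voom (0.012), the replicate block (0.091) and the library number set (0.059), and Cd33 was −0.055 in APP/PS1+N-AS against WT in libraries 1 to 6. Without 1 library, the values that changed sign ranged as follows. In APP/PS1 against WT, Cd33 ran from −0.023 to 0.47, Cd300a from −0.31 to 0.27 and Cd200r1 from −0.091 to 1.00. In APP/PS1+N-AS against APP/PS1, Cd33 ran from −0.25 to 0.067, Cd22 from −0.48 to 0.14, Cd300a from −0.27 to 0.10, Cd200r1 from −0.14 to 0.47 and Lair1 relative to the markers from −0.024 to 0.10. In APP/PS1+N-AS against WT, Cd33 ran from −0.13 to 0.36 and Cd300a from −0.37 to 0.21. The cause of these changes was not tested.

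With the replicate number as a block for the pairing, 2, 0 and 0 receptors were called in the 3 comparisons, as without it, and no call of a receptor changed. Same-numbered libraries correlated at −0.49, 0.44 and −0.0096 in APP/PS1 and WT and at −0.14, 0.35 and 0.24 in APP/PS1+N-AS and WT, so these share only a number. The genes called in APP/PS1 against WT were 649, and 1296 with DESeq2, 1055 with the library number set, 937 in libraries 1 to 6, 410 with only the groups compared, 326 with the block, 299 to 923 without 1 library and 0 with the marker mean. For APP/PS1+N-AS against WT they were 35, and 180, 64, 437, 2, 5, 1 to 116 and 0 in the same order, with 20 by limma voom. For APP/PS1+N-AS against APP/PS1 they were 0, with 73 by DESeq2, 11 in libraries 1 to 6 and at most 1 without 1 library. Depth limits Cd200r1, with at most 68 reads in a library.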
